A study of Mus musculus with 6 samples.

Results

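The genes described here are p53, its target genes and the core genes of apoptosis, 33 of the 55631 genes in a table of expression values (FPKM, fragments scaled for gene length and for the size of the library) from mouse palatal shelves. They were chosen by symbol, with earlier results of these data known, and matched by Ensembl gene ID, and all 33 were found. By role they fall into Trp53 itself, 21 direct p53 targets, 9 genes of the apoptotic machinery, and Gadd45b and Gadd45g, relatives of the p53 target Gadd45a. Of the 21 direct targets, 5 are members of the Bcl2 family or death receptors. The other 16 are kept together as genes of growth arrest, DNA repair, feedback and other responses, and several of them, such as Aen, Eda2r and Ei24, are also tied to cell death.

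p53 is a transcription factor that is held low by Mdm2, a ubiquitin ligase that marks it for breakdown. DNA damage and other stresses release p53, which then switches on genes for cell cycle arrest, repair and death, among them Mdm2 itself. Its activity is set mostly at the level of the protein. In apoptosis the pro-death members of the Bcl2 family open the outer mitochondrial membrane, cytochrome c joins Apaf1 and Casp9 in the apoptosome, and executioner caspases follow. Excess p53 activity in neural crest cells causes craniofacial malformations in mouse models, and apoptosis of epithelium is part of normal palate fusion.

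There were 2 groups of 3 libraries, all from palatal shelves of embryos at E14.5. KO embryos carried p130Casfl/fl and a CAG-Cre transgene. Control embryos, titled WT in the labels, carried p130Casfl/fl with no Cre in their genotype label. Bcar1 encodes p130Cas, an adaptor protein of cell adhesion sites, and the CAG promoter is active in most cell types. Loss of p130Cas and presence of the Cre transgene cannot be told apart in this design. The comparison asks how transcript levels in the shelves differ between KO and control embryos, in a series that ties loss of p130Cas to cleft palate.

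Bcar1 had 1.69, 1.69 and 1.31 FPKM in KO libraries, against 1.80, 1.97 and 2.09 FPKM in control libraries. The KO values lay below all control values without passing the test (limma, adjusted p = 1.00), and the KO mean was 0.802 of the control mean. A value for the whole gene does not show whether the floxed exons were deleted, so the loss of p130Cas rests on the labels here. Xist and Ddx3y mark KO replicate 2 as the 1 female library, and the other 5 as male. The 8 markers of palatal mesenchyme were all expressed, summing to 423 to 529 FPKM in KO libraries and 409 to 476 FPKM in control libraries. Cartilage markers summed to 513, 83.3 and 77.7 FPKM in KO replicates 1 to 3 and to 189 to 424 FPKM in control libraries, so KO replicate 1 stood apart from the other KO libraries. Separate litters are not stated in the labels, and p-values therefore reflect only the spread among these libraries. Among KO libraries that spread includes a difference in sex. How much of the rest is technical is not stated. Sequencing depth cannot be read from the table. In bulk tissue, fewer cells of a type and less RNA per cell cannot be told apart.

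Of the 33 genes, 7 had all 3 KO values above all 3 control values, 0 had all 3 below, and 26 overlapped. All 7 are direct p53 targets. They are Eda2r, Ccng1, Trp53inp1, Zmat3, Bbc3, Phlda3 and Gadd45a. A gene was tested where its mean was 1 FPKM or more, which kept 30 members and left out Eda2r, Pmaip1 and Gdf15. Among the 30 tested members, 6 (20%) had all KO values above all control values, against 3.27% of all 14714 tested genes, and 0 had all KO values below, against 5.79%. As the members were chosen with earlier results known, these shares are no independent test. In limma with genotype as the only term, 0 members were higher in KO at an adjusted p under 0.05, against 0.326% of all tested genes, and 0 were lower, against 0.0068%. At an unadjusted p under 0.05, 6 members were higher, against 2.09% of all tested genes, and 0 were lower, against 1.92%. With 3 libraries a group the exact two-sided permutation test cannot give a p below 0.1.

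**Figure D1:**
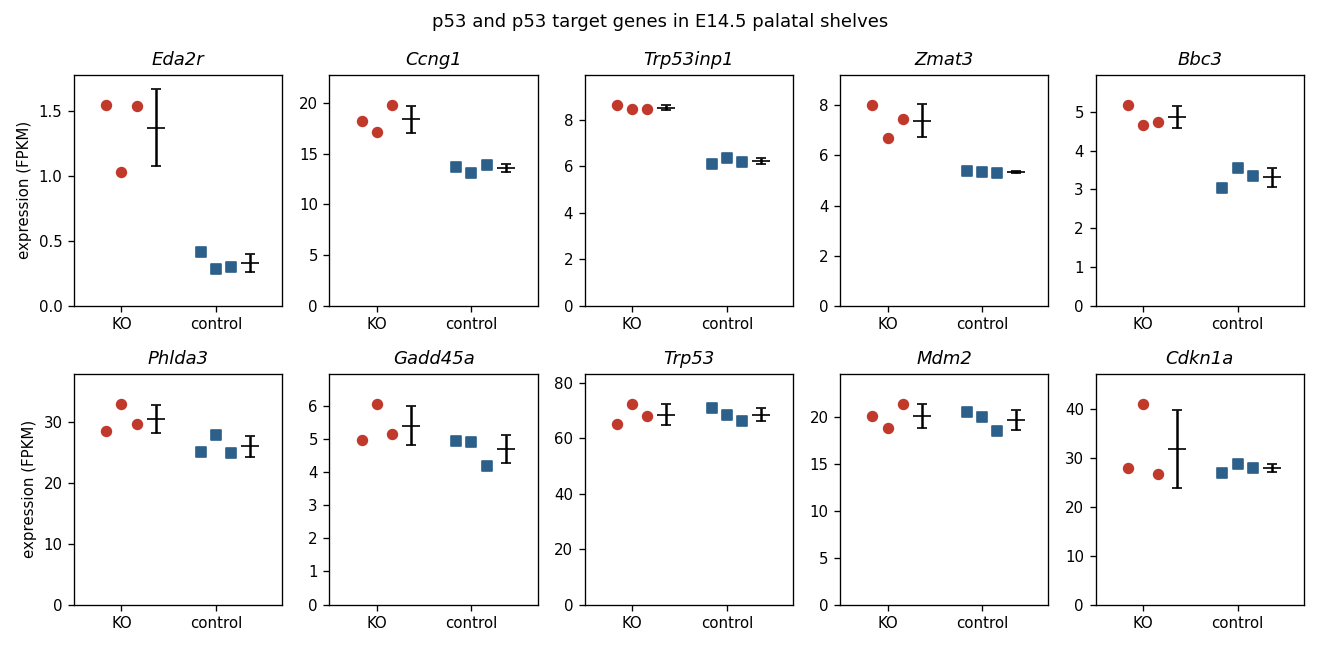
Expression in FPKM (y axis, starting at 0) of the 7 genes whose groups did not overlap and of Trp53, Mdm2 and Cdkn1a, in 3 KO (red circles, left) and 3 control libraries (blue squares, right). Points are replicates 1 to 3 from left to right, and black bars are the mean ± SD. Eda2r averaged 1.37 FPKM in KO libraries and 0.331 FPKM in control libraries, while the values of Trp53, Mdm2 and Cdkn1a overlapped between the groups.

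Trp53 (ENSMUSG00000059552), which encodes p53, was the most highly expressed member and was at the same mean level in both groups. Its values were 65.2, 72.5 and 68.0 FPKM in KO libraries, against 71.05, 68.4 and 66.3 FPKM in control libraries. The libraries of the 2 groups were interleaved, and on the scale of log2(FPKM + 1) KO minus control was 0.00 ± 0.06 (SE, 95% interval -0.15 to 0.15; limma, adjusted p = 1.00). Mdm2, the p53 target that restrains p53, had 20.1, 18.8 and 21.4 FPKM in KO libraries and 20.6, 19.96 and 18.5 FPKM in control libraries. Its log2 fold change was 0.03 ± 0.07 (SE, 95% interval -0.14 to 0.20; limma, adjusted p = 1.00).

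The largest ratio belonged to Eda2r (ENSMUSG00000034457), a receptor of the TNF receptor family that binds a form of ectodysplasin, on the minus strand of chromosome X (GRCm38, 97333840 to 97377216). Eda2r had 1.55, 1.03 and 1.54 FPKM in KO libraries, against 0.411, 0.286 and 0.296 FPKM in control libraries. The lowest KO value was well above the highest control value, and the KO mean was 4.15 times the control mean. With no filter on low values Eda2r rose in KO by 0.83 ± 0.12 on the log2 scale (SE; limma, adjusted p = 0.0358), and the exact permutation p was 0.1. That call rests on every library other than the female KO replicate 2: without KO replicate 1 or 3 the adjusted p was 0.134 and 0.140, and without control replicate 1, 2 or 3 it was 0.138, 0.252 and 0.270. Without KO replicate 2, which leaves males on both sides, the adjusted p was 0.017 and the log2 fold change 0.94. With sex as a covariate the adjusted p was 0.107.

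Ccng1, Trp53inp1 and Zmat3 differed by similar proportions. Ccng1 (ENSMUSG00000020326, chromosome 11, 40748552 to 40755311, minus strand) encodes cyclin G1, which takes part in feedback on p53. It had 18.2, 17.1 and 19.8 FPKM in KO libraries, against 13.7, 13.1 and 13.9 FPKM in control libraries. All 3 KO values lay above every control value, and the log2 difference was 0.41 ± 0.07 (SE; limma, adjusted p = 0.121). Trp53inp1 (ENSMUSG00000028211, chromosome 4, 11156431 to 11174379, plus strand) encodes a stress protein that promotes p53 activity and autophagy. It had 8.63, 8.44 and 8.47 FPKM in KO libraries and 6.11, 6.36 and 6.17 FPKM in control libraries. Its replicates lay close together in both groups, and the log2 fold change was 0.40 ± 0.07 (SE; limma, adjusted p = 0.106).

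Zmat3 (ENSMUSG00000027663, chromosome 3, 32334792 to 32366014, minus strand) encodes an RNA-binding zinc finger protein. It had 8.02, 6.69 and 7.47 FPKM in KO libraries and 5.38, 5.34 and 5.30 FPKM in control libraries. The control libraries were nearly equal and all KO values lay above them, with a log2 difference of 0.40 ± 0.08 (SE; limma, adjusted p = 0.258). None of the 3 genes passed, and the KO mean was 35.6% above the control mean for Ccng1, 37.1% for Trp53inp1 and 38.5% for Zmat3. With library weights all 3 passed (limma, adjusted p = 0.0210 for Ccng1, 0.0318 for Trp53inp1 and 0.0340 for Zmat3). Over all alternatives the highest adjusted p was 0.545, 0.458 and 0.898 in the same order.

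Phlda3 (ENSMUSG00000041801), which competes with Akt for membrane lipids, and Gadd45a (ENSMUSG00000036390), which acts in growth arrest and repair, showed smaller differences. Phlda3 had 28.6, 32.99 and 29.7 FPKM in KO libraries and 25.1, 27.9 and 24.9 FPKM in control libraries. Gadd45a had 4.97, 6.08 and 5.16 FPKM in KO libraries and 4.95, 4.92 and 4.21 FPKM in control libraries. For Gadd45a the lowest KO value and the highest control value were almost equal. The log2 fold change was 0.22 ± 0.08 for Phlda3 and 0.17 ± 0.10 for Gadd45a (SE; limma, adjusted p = 1.00 for each). Exons of the antisense gene E230016M11Rik cover 19.1% of the exon bases of Gadd45a, and since the strand setting is not given, reads of the 2 genes cannot be told apart.

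Cdkn1a (ENSMUSG00000023067), which encodes the cell cycle inhibitor p21, is the best known arrest gene of p53. It had 27.9, 41.1 and 26.8 FPKM in KO replicates 1 to 3, against 27.0, 28.7 and 28.0 FPKM in control replicates 1 to 3. KO replicate 2 was high and the other KO libraries lay within or just below the range of the controls. The log2 fold change was 0.16 ± 0.15 (SE, 95% interval -0.18 to 0.51; limma, adjusted p = 1.00), and without KO replicate 2 it was -0.03. Oral epithelium markers were also highest in KO replicate 2, with summed levels of 338, 496 and 280 FPKM in KO replicates 1 to 3 and of 315 to 404 FPKM in control libraries. The part of this in the Cdkn1a value was not tested.

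Of the rest of these 16 targets, Aen, a nuclease that enhances apoptosis, had 11.8, 14.2 and 14.1 FPKM in KO libraries and 11.1, 9.28 and 12.4 FPKM in control libraries. Control replicate 3 lay above KO replicate 1, so the groups overlapped (log2 fold change 0.28 ± 0.11, SE; limma, unadjusted p = 0.0447, adjusted p = 1.00). Btg2, an antiproliferative protein, averaged 9.35 ± 0.691 FPKM in KO libraries and 8.36 ± 0.703 FPKM in control libraries (SD, n = 3 each). The translesion polymerase gene Polk averaged 3.52 ± 0.935 FPKM in KO libraries and 2.81 ± 0.671 FPKM in control libraries. The kinase gene Plk2, the sestrin gene Sesn1, Ei24, and Rrm2b, a subunit of ribonucleotide reductase, had log2 fold changes between -0.08 and 0.06, and none passed (limma, adjusted p = 1.00 for each). Gdf15, a secreted stress cytokine, was listed at 0 in every library except KO replicate 2, at 0.150 FPKM.

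Among the 5 targets of the Bcl2 family and the death receptors, Bbc3 (ENSMUSG00000002083, chromosome 7, 16308393 to 16318205, plus strand), which encodes Puma, stood apart from the others. Bbc3 had 5.18, 4.65 and 4.74 FPKM in KO libraries, against 3.04, 3.54 and 3.33 FPKM in control libraries. All KO values lay above all control values, and the log2 fold change was 0.44 ± 0.09 (SE, 95% interval 0.24 to 0.65; limma, adjusted p = 0.207). Under 18 alternatives the adjusted p of Bbc3 lay between 0.0674 and 0.702. Pmaip1, which encodes the BH3-only protein Noxa, had 0.806, 1.32 and 1.196 FPKM in KO libraries and 0.810, 0.719 and 0.678 FPKM in control libraries. KO replicate 1 lay at the level of the controls, and with no filter the log2 fold change was 0.27 ± 0.12 (SE; limma, adjusted p = 0.965). Bax, the pore-forming member of the Bcl2 family, was at 52.1, 56.7 and 50.1 FPKM in KO libraries and 46.9, 54.3 and 51.1 FPKM in control libraries, with wide overlap. The death receptor genes Tnfrsf10b and Fas had log2 fold changes of 0.07 ± 0.09 and 0.00 ± 0.16 (SE), and neither passed (limma, adjusted p = 1.00 for each).

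**Figure D2:**
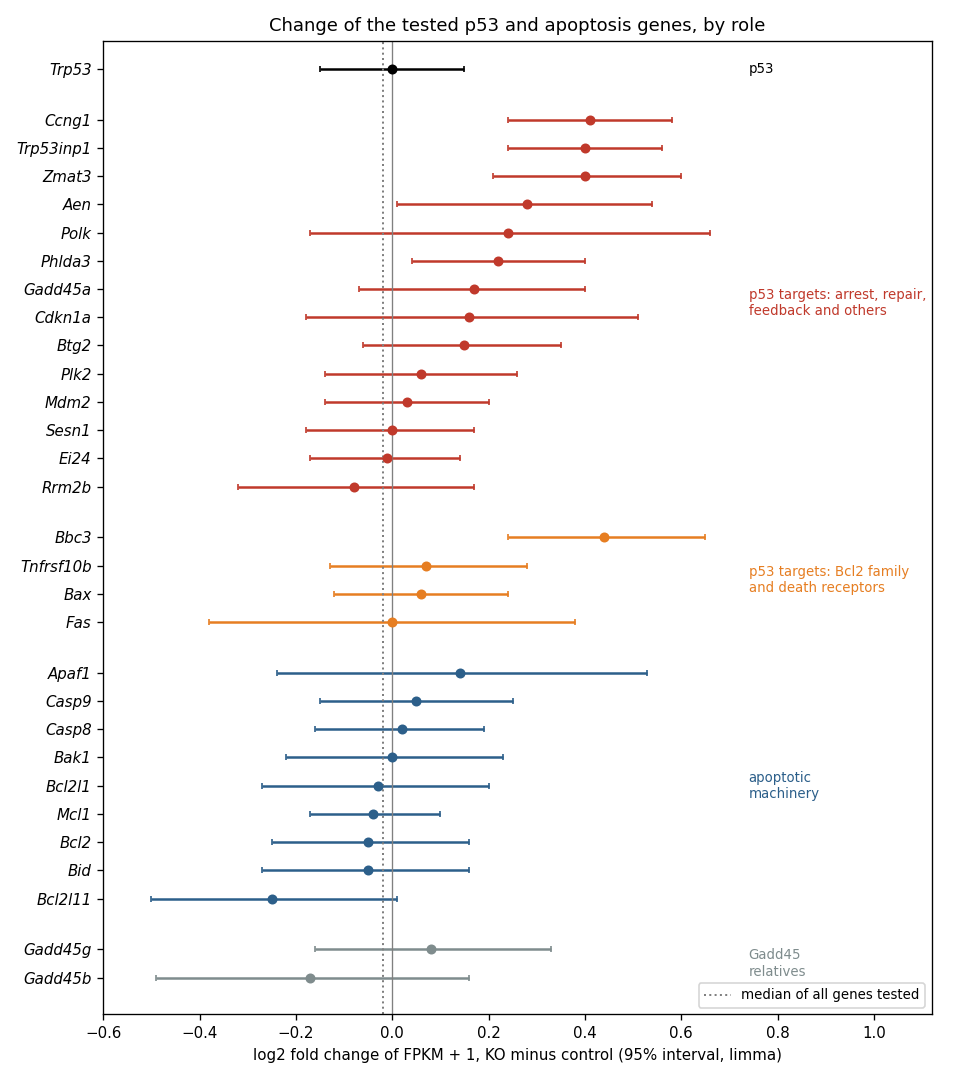
Log2 fold change of FPKM + 1, KO minus control (x axis), for the 30 tested members grouped by role (y axis), with 95% intervals from limma over 3 libraries a group. Grey lines mark no change and the median of all 14714 tested genes, -0.02. Ccng1, Trp53inp1, Zmat3 and Bbc3 lie between 0.40 and 0.44, and the 9 genes of the apoptotic machinery lie between -0.25 and 0.14.

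Among the 9 genes of the apoptotic machinery no difference passed the test. All 9 were tested and 0 passed in limma, against 0.326% of all tested genes higher and 0.0068% lower. At an unadjusted p under 0.05 there were 0 in either direction, against 2.09% higher and 1.92% lower. The groups were separated in 0, against 3.27% with all KO values above and 5.79% with all below. At such shares a count of 0 among 9 genes says little. Their median log2 fold change was -0.03, with values from -0.25 to 0.14, beside -0.02 for all tested genes. Bcl2l11, which encodes the BH3-only protein Bim, was the lowest, at 8.51, 6.66 and 7.60 FPKM in KO libraries and 9.48, 8.07 and 9.99 FPKM in control libraries. KO replicate 1 lay above control replicate 2, so the groups overlapped (log2 fold change -0.25 ± 0.11, SE; limma, adjusted p = 1.00).

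The anti-apoptotic genes had nearly equal means. Mcl1 averaged 35.9 ± 1.41 FPKM in KO libraries and 36.8 ± 0.499 FPKM in control libraries (SD, n = 3 each). Bcl2l1, which encodes Bcl-xL, averaged 25.7 ± 3.52 FPKM in KO libraries and 26.2 ± 1.68 FPKM in control libraries, and Bcl2 7.32 ± 0.533 FPKM in KO libraries and 7.59 ± 0.673 FPKM in control libraries. The differences were smaller than the spread within the groups for Bcl2l1 and Bcl2, and smaller than the KO SD for Mcl1. The pore-forming Bak1 averaged 22.9 ± 2.71 FPKM in KO libraries and 22.7 ± 1.74 FPKM in control libraries, and Bid, which links death receptors to mitochondria, 4.57 ± 0.410 FPKM in KO libraries and 4.77 ± 0.354 FPKM in control libraries. Exons of the antisense neighbour Bcl2l13 cover 17.7% of those of Bid, and Ggnbp1 likewise overlaps Bak1.

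The initiator caspase genes gave 95% intervals of -0.16 to 0.19 for Casp8, which acts at death receptors, and of -0.15 to 0.25 for Casp9, which acts in the apoptosome (log2 scale). Apaf1, the scaffold of the apoptosome, had 10.9, 7.36 and 12.2 FPKM in KO libraries and 9.74, 8.05 and 8.98 FPKM in control libraries. Its KO replicates spread more widely than the controls, and its interval ran from -0.24 to 0.53. Gadd45b and Gadd45g, stress-induced genes of the Gadd45 family, had log2 fold changes of -0.17 ± 0.14 and 0.08 ± 0.11 (SE), and neither passed (limma, adjusted p = 1.00 for each).

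Set side by side, the tested direct targets had a median log2 fold change of 0.15 and 15 of 18 lay above 0, while 4 of 9 machinery genes and 40.6% of all tested genes did. Rescaling to TPM put 17 of 18 targets, 4 of 9 machinery genes and 53.4% of all genes above 0. The median of the targets' deviations from the control mean was 0.09, 0.21 and 0.12 in KO replicates 1 to 3 and ran from -0.02 to 0.01 in control libraries. Without KO replicate 2 the median log2 fold change of the targets was 0.10. The difference between the 2 groups of members was not tested.

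Levels per length spanned a wide range. In control libraries 4 members averaged above 40 FPKM, namely Trp53 at 68.6 ± 2.40, Bax at 50.8 ± 3.68, Plk2 at 43.3 ± 3.59 and Ei24 at 43.1 ± 2.74 FPKM (SD, n = 3). Trp53 lay above every value of Bax, whereas Bax, Plk2 and Ei24 overlapped. At the other end 5 members averaged under 2 FPKM, namely Fas, Rrm2b, Pmaip1, Eda2r and Gdf15. The genes whose groups did not overlap were spread over this range, with control means from 0.331 FPKM for Eda2r to 26.0 FPKM for Phlda3.

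The upstream sequences of members on both sides of this pattern are shown because p53 binds a known sequence, a pair of decamers with a short spacer. They are the 250 bases before an annotated start, from RefSeq on GRCm38.p6, printed 5′ to 3′ on the gene's strand. Capitals mark each exact match to the p53 decamer consensus and each decamer of a pair. A pair was counted where up to 13 bases lay between its decamers and up to 2 bases mismatched in all. Eda2r and Ccng1 had higher values in all KO libraries, and Cdkn1a, Bax and Mdm2 overlapped between groups. For Cdkn1a the window before the upstream of its 2 annotated starts is shown. In order, the windows lie at chrX:97377210-97377459 (minus strand), chr11:40755287-40755536 (minus strand), chr17:29090729-29090978 (plus strand), chr7:45466899-45467148 (minus strand) and chr10:117710759-117711008 (minus strand).
Eda2r: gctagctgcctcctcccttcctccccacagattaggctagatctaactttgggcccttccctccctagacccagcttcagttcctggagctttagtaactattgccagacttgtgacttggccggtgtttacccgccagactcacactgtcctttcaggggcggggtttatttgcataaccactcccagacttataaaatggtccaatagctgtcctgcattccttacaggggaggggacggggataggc
Ccng1: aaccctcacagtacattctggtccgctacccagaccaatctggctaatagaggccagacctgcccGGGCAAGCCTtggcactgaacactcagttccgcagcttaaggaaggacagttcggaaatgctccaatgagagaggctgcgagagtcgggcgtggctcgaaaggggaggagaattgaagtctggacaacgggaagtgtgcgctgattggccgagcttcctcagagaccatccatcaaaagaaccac
Cdkn1a: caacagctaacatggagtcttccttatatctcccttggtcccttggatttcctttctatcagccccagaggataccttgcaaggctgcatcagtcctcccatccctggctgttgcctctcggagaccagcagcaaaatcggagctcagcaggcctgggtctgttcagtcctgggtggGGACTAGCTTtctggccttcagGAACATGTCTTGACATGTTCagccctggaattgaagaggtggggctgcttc
Bax: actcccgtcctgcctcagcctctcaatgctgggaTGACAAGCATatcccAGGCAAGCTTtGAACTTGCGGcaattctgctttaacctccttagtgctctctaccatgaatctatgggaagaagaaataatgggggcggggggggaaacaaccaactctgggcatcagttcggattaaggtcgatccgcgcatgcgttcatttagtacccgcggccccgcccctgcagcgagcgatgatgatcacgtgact
Mdm2: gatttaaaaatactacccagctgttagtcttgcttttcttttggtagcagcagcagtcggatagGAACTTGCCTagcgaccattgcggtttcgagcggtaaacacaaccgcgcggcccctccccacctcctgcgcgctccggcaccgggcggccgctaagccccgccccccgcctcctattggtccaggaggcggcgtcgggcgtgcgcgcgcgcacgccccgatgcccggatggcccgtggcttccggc

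These windows lie upstream of the genes, with 7, 25 and 3 bases inside annotated exons for Eda2r, Ccng1 and Cdkn1a and 0 for Bax and Mdm2. Of the 33 members, 28 had at least 1 window, and Trp53inp1, Zmat3, Rrm2b, Tnfrsf10b and Pmaip1 had none in the table. The decamer was present in 9 of 16 direct targets with a window (56.2%), in 1 of 12 other members (8.33%) and in 8.2% of 27025 genes with a window. A pair was present in 3 of the 16 targets, Bax, Cdkn1a and Sesn1, and in 2.06% of all genes. The 2 pairs of Cdkn1a share a decamer, as do those of Bax, and the decamer consensus is its own reverse complement, so a match covers both strands. The targets were listed for known regulation by p53, so their share is no independent result. The decamer was found in 2 of the 5 targets with a window whose groups did not overlap (Ccng1 and Gadd45a) and in 7 of the 11 whose groups overlapped. Absence from a window says only that these letters are not in it.

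Other genes of the pathway were counted from lists. Over these 6 lists 102 genes were tested. In limma 0 were higher at an adjusted p under 0.05, against 0.326% of all tested genes, and 0 were lower, against 0.0068%. At an unadjusted p under 0.05, 7 of the 102 were higher, against 2.09% of all tested genes, and 2 were lower, against 1.92%. Of 36 other p53 targets, 34 were tested, with a median log2 fold change of 0.03. All KO values lay above all control values in 5 of them (14.7%), against 3.27% of all tested genes. They lay below all control values in 1 (Prkab1), against 5.79%. This list too was chosen with earlier results of these data known. Sesn2, a sestrin that restrains mTOR signalling, had 6.52, 7.90 and 6.14 FPKM in KO libraries and 4.73, 4.75 and 4.57 FPKM in control libraries, with no overlap. Its log2 fold change was 0.46 ± 0.10 (SE; limma, adjusted p = 0.286). Zfp365, a zinc finger protein of genome maintenance, averaged 2.39 ± 0.137 FPKM in KO libraries and 1.65 ± 0.234 FPKM in control libraries, and the spindle gene Psrc1 29.3 ± 2.53 FPKM in KO libraries and 24.1 ± 2.14 FPKM in control libraries (SD, n = 3 each). Ddit4, an mTOR inhibitor that hypoxia also induces, averaged 44.0 ± 4.83 FPKM in KO libraries and 37.3 ± 1.55 FPKM in control libraries, with overlap.

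Among 26 tested regulators and relatives of p53, the median log2 fold change was 0.03 and the values ran from -0.20 to 0.11. The lowest was Kat5, an acetyltransferase that acts on p53, at 22.0 ± 1.51 FPKM in KO libraries and 25.3 ± 1.68 FPKM in control libraries, with no overlap (limma, adjusted p = 1.00). The next by p were Usp10, Ppm1d and Chek2, with log2 fold changes of -0.08, 0.08 and 0.09. The phosphatase gene Ppm1d, itself induced by p53, averaged 7.67 ± 0.406 FPKM in KO libraries and 7.20 ± 0.225 FPKM in control libraries.

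In the rest of the Bcl2 family, 8 of 15 genes were tested, with a median of -0.07. Bnip3, a mitophagy receptor that hypoxia induces, had 27.4, 31.5 and 26.5 FPKM in KO libraries and 21.6, 20.8 and 18.9 FPKM in control libraries, with no overlap (log2 fold change 0.46 ± 0.08, SE; limma, adjusted p = 0.152, and 0.0458 with library weights). The BH3-only gene Bmf lay lower in all KO libraries, at 15.97 ± 1.19 FPKM, against 18.3 ± 0.379 FPKM in control libraries (limma, adjusted p = 1.00). Bad averaged 19.99 ± 2.78 FPKM in KO libraries and 22.9 ± 1.30 FPKM in control libraries, and Bik 0.792 ± 0.195 FPKM in KO libraries and 1.26 ± 0.322 FPKM in control libraries, both with overlap.

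Of 17 other caspase, apoptosome and inhibitor genes 16 were tested, with a median of -0.01 and values from -0.20 to 0.19. The 4 with the smallest p were Diablo, Birc3, Endog and Dffb, with log2 fold changes of -0.16, 0.19, -0.20 and 0.13. Of 19 death receptor and adaptor genes 14 were tested, with a median of -0.03, and Tnfrsf21, Tnfrsf1a, Tnfrsf11b and Ngfr had log2 fold changes of -0.18, -0.09, 0.26 and -0.10. All tested genes of these lists had overlapping groups. Tnfsf10 and Tnfrsf26, picked out after their values were seen, fell below the filter and had no overlap. Tnfsf10 stood at 0.111, 0.138 and 0.142 FPKM in KO libraries and was listed at 0 in all control libraries. Tnfrsf26 stood at 0.221, 0.162 and 0.169 FPKM in KO libraries and at 0.130, 0 and 0.152 FPKM in control libraries. Neither passed (limma with no filter, adjusted p = 0.965 for each).

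Of 10 necroptosis and pyroptosis genes 4 were tested. Gsdmd, the pore-forming gasdermin D, had 6.61, 6.31 and 6.81 FPKM in KO libraries and 5.05, 5.25 and 5.13 FPKM in control libraries, with no overlap (log2 fold change 0.30 ± 0.07, SE; limma, adjusted p = 0.467). Ripk3, Pycard and Gsdme had log2 fold changes of 0.06, 0.02 and 0.00. Zbp1 and Mlkl, picked out after their values were seen, fell below the filter. Zbp1, a sensor of Z-form nucleic acid, stood at 0.861, 1.27 and 0.536 FPKM in KO libraries, and in control libraries it was listed at 0 in replicates 1 and 2 and at 0.122 FPKM in replicate 3. With no filter its adjusted p was 0.0723 (limma). Mlkl, the effector of necroptosis, stood at 0.745, 0.421 and 0.429 FPKM in KO libraries and at 0.183, 0 and 0.219 FPKM in control libraries (limma with no filter, adjusted p = 0.577).

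**Figure D3:**
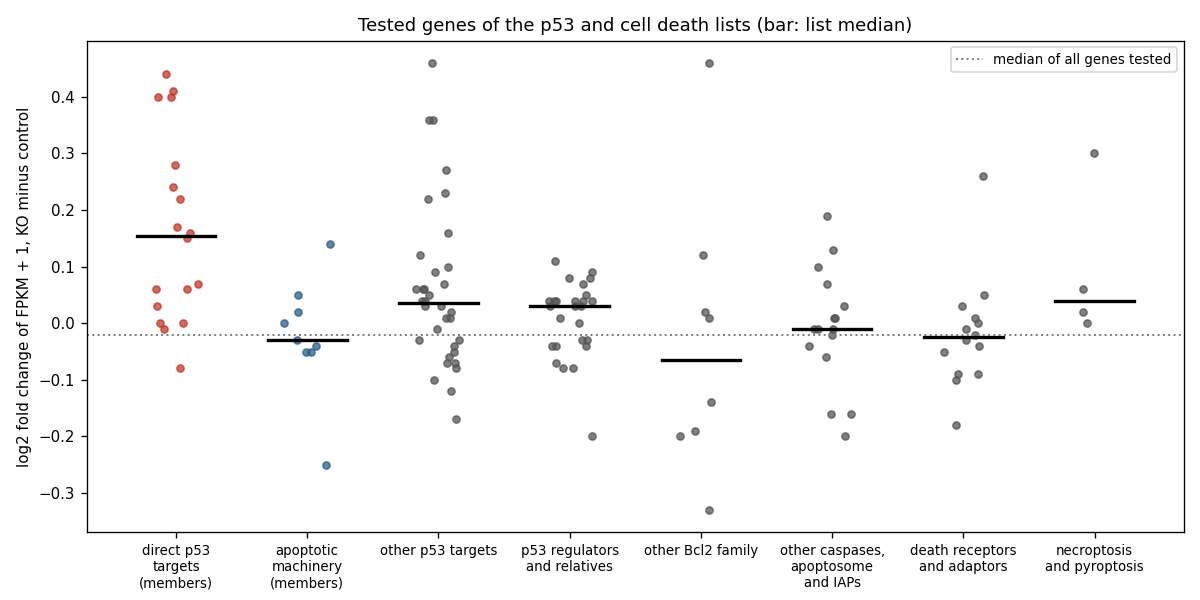
Log2 fold change of FPKM + 1, KO minus control (y axis), of each tested gene in the direct p53 targets, the apoptotic machinery and 6 further lists (x axis), from 3 libraries a group. Black bars are list medians and the dotted line is the median of all tested genes, -0.02. The bar of the 18 direct targets is at 0.15, and those of the other lists lie between -0.07 and 0.04.

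Genes of other kinds differed between the same groups. All 8 interferon-response genes listed rose in KO (limma, adjusted p under 0.05 each), against 0.326% of all tested genes. They were chosen with earlier results known, so this count is no independent result. Usp18, Irf7 and Ifit1 clear the filter only because of their KO values, with control means of 0.403, 0.476 and 0.157 FPKM. The summed level of the 8 genes was 109 to 148 FPKM in KO libraries and 15.0 to 18.3 FPKM in control libraries. Their median deviation from the control mean was 2.16, 2.58 and 2.56 in KO replicates 1 to 3. Leukocyte markers summed to 135 to 186 FPKM in KO libraries and 95.7 to 117 FPKM in control libraries. Of the 19 markers 16 were tested, 0 passed in limma, and none of the 19 was at 0 in all libraries. The log2 fold change was above 0 for all 16, against 40.6% of all tested genes, and 13 had all KO values above all control values, against 3.27%. Ptprc, which marks leukocytes in general, stood at 1.00, 0.916 and 1.31 FPKM in KO libraries and at 0.736, 0.538 and 0.464 FPKM in control libraries. The median deviation of the leukocyte markers was 0.43, 0.74 and 0.32 in KO replicates 1 to 3, highest in KO replicate 2. The median deviation of the direct p53 targets was also highest in KO replicate 2, at 0.09, 0.21 and 0.12 in KO replicates 1 to 3. Of the 7 members whose groups did not overlap, 5 had their lowest KO value in that library (Eda2r, Ccng1, Trp53inp1, Zmat3 and Bbc3) and 2 their highest (Phlda3 and Gadd45a). For Trp53inp1 KO replicates 2 and 3 were almost equal, at 8.44 and 8.47 FPKM. Endothelial markers lay lower in KO, with sums of 109 to 134 FPKM in KO libraries and 136 to 156 FPKM in control libraries. All 8 had a log2 fold change below 0, as did 8746 of all 14714 tested genes. Of the 8, 4 had all KO values below all control values, against 5.79% of all tested genes, and 0 passed in limma. The 8 skeletal muscle markers were also all below 0, beside that same share of all tested genes. Among them 1 gene had all KO values below all control values, and 0 passed. Their sums of 241 to 357 FPKM in KO libraries and 243 to 424 FPKM in control libraries overlapped. Sums of neuron markers (42.2 to 80.0 FPKM in KO libraries, 49.2 to 95.6 FPKM in control libraries) overlapped as well. The part of any of these genes in the values of the p53 targets was not tested.

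**Figure D4:**
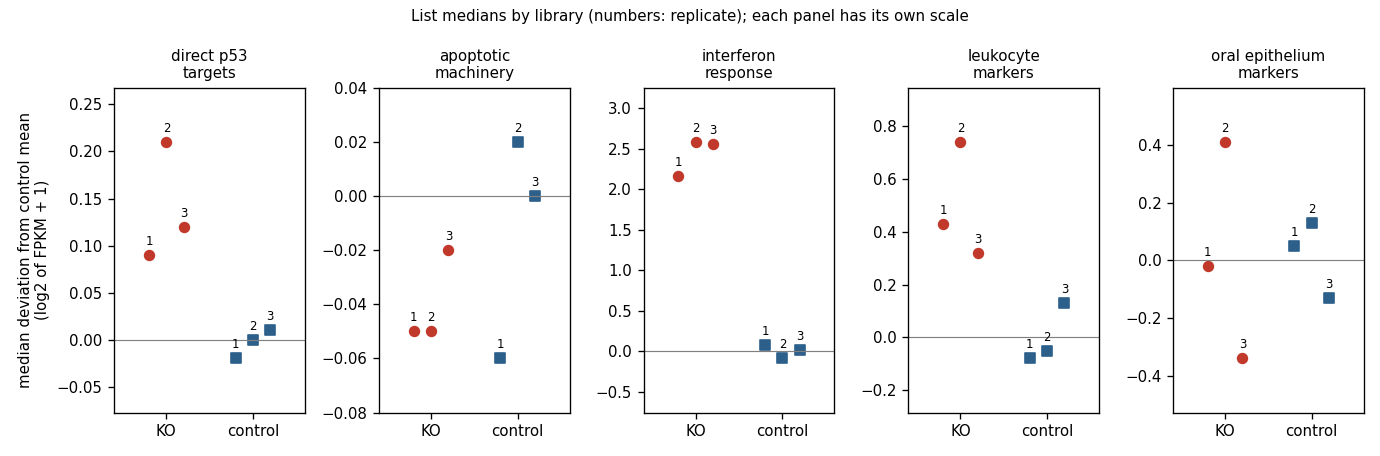
Median deviation from the control mean (y axis, log2 of FPKM + 1, each panel with its own scale) of 5 gene lists in 3 KO (red circles, left) and 3 control libraries (blue squares, right), numbered by replicate. The direct p53 targets lie at 0.09 to 0.21 in KO libraries and -0.02 to 0.01 in control libraries, the apoptotic machinery at -0.05 to -0.02 in KO libraries and -0.06 to 0.02 in control libraries. Oral epithelium markers are highest in KO replicate 2, at 0.41.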

How the data were processed

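The authors deposited FPKM values, a unit taken from the name of their table, for 55631 genes in 6 libraries. The submitters' processing notes name mm10 and DESeq2 version 1.5.2. Depth is unknown, and for the aligner, the counter, the annotation and the strandedness the tool or setting is not given in the sources used here. Between 84 and 109 genes in each library share its smallest value above 0, but other values are not whole multiples of it, so reads were not recovered.

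Libraries were grouped by their titles. Symbols and coordinates came from GENCODE M21 (GRCm38) by gene ID, with 50824 IDs matched. Genes averaging 1 FPKM or more were fitted as log2(FPKM + 1) in limma version 3.58.1 (R version 4.3.3), with genotype as the only term, eBayes with a trend and two-sided p-values adjusted by Benjamini-Hochberg over all 14714 genes. Fold changes on this scale understate those of low genes. The model was tested on simulated data. Same-numbered libraries were checked for pairing: their deviations from the group means correlated at 0.02, 0.31 and -0.24, so the numbers do not pair them. The members and lists were chosen with earlier results of these data known. Named genes were all members and, of each pathway list, the 4 tested genes of smallest p. Alternatives were pseudocounts of 0.1 and 0.01, no filter and filters at 0.5 and 5 FPKM, scaling by quantiles, by median of ratios and to TPM, eBayes without a trend and with robust estimation, limma's library weights, a replicate block, sex, and each library left out.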

Additional observations from a re-analysis of the deposited data

How the results depend on the processing

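Over 19 alternatives, members called lower stayed at 0. Members called higher were 3 with library weights, 1 (Eda2r) with no filter or with a filter at a mean of 0.5 FPKM, and 0 otherwise. The filter at 0.5 FPKM was chosen after seeing the data. Eda2r clears it only because of its KO values, as the control mean was 0.331 FPKM and the mean over all libraries 0.851 FPKM. The call at that filter is thus no separate evidence beside the call with no filter. The rest of the Bcl2 family gave 1 higher gene with library weights, and the pathway lists gave 0 calls under all other settings. Over all 14714 tested genes, 48 were higher in the reported fit and 66 with library weights. With no filter 67 of 25387 genes were higher, and with a filter at 0.5 FPKM 60 of 16760. With a filter at 5 FPKM 24 of 9923 were higher. Lower genes numbered 2 with no filter, with a filter at 0.5 FPKM and with sex as a covariate, 0 with a filter at 5 FPKM, and 1 under the other settings that used all libraries. With each library left out, 32 to 48 genes were higher and 1 to 2 lower. The cause was not tested.

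The median log2 fold change of all tested members was 0.06, 0.09 after rescaling to TPM and 0.02 with sex as a covariate, and 0.02 to 0.07 with each library left out. That of the direct targets was 0.10 with sex as a covariate and 0.10 to 0.20 with each library left out, and that of the machinery -0.04 to 0.01. With the replicate block the adjusted p was 0.210 for Ccng1, 0.392 for Trp53inp1 and 0.584 for Bbc3, and 0.073 for Eda2r with no filter, whose call was thus lost. The block changed no other member's call. Of same-numbered libraries, KO replicate 2 and control replicate 2 alone correlated best with each other. Signs near 0, as for Trp53, Fas, Sesn1 and Bak1, turned under some settings with no call. Depth is unknown, and Gdf15, at 0.150 FPKM in 1 library, lies near the smallest values listed above 0.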
